A study of Mus musculus with 18 samples.

Results

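The 10 genes described here are FOXO-type catabolic genes, that is, genes known as targets of FOXO transcription factors or as genes switched on by starvation: Bmf, Pik3ip1, Fbxo32, Trim63, Bcl6, Sesn1, Sesn3, Klf15, Txnip and Foxo1. They were taken by symbol from a table of 20295 genes. Bmf, Pik3ip1 and Fbxo32 gave the set its reason and were chosen by their lower counts after ISO or SR-3420 against Vehicle, and the others were added as known targets of FOXO or starvation, so these contrasts are given for the set without tests. A filter on low counts left 12156 genes, among them 9 of the 10 (Trim63 did not pass). The label of a repressed set holds for only part of the list, since Bcl6, Txnip and Foxo1 were higher, not lower, in both stimulated groups.

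All samples were BAT-LgT cells, a mouse line of brown fat precursors that carries SV40 large T antigen, which were turned into brown adipocytes and harvested on day 7. The 6 groups were Vehicle (DMSO), ISO (isoproterenol, 100 nM, an agonist of the β-adrenergic receptors), SR-3420 (a ligand of ABHD5 that activates the triglyceride lipase ATGL without a β-adrenergic signal), and the same treatments after inhibition of lipolysis, named Lipase Inh. + SR-3420, Lipase Inh. + ISO and Lipase Inh. + Vehicle. The inhibitors were Atglistatin, which blocks ATGL, and CAY10499, which blocks HSL, given 1 h before the stimulus, and the stimulus lasted 3 h. The dose of SR-3420 is 10 µM in the labels and differs in the text of the study, which was not settled here. Each group had 3 replicates from independent experiments on 1 cell line, so nothing here speaks for brown fat of an animal or for another line. In the design, the inhibitors serve to ask which effects of ISO need lipolysis, and SR-3420 which effects lipolysis has on its own. Whether the inhibitors and SR-3420 act through lipolysis alone was not tested here.

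FOXO proteins are transcription factors that insulin and growth factors keep out of the nucleus through PI3K and AKT. When that signal is low, they enter the nucleus and turn on genes that slow growth, promote cell death or break down protein and fuel. Their best known targets come from muscle and liver, where Fbxo32 (atrogin-1) and Trim63 (MuRF1) are the ubiquitin ligases of muscle wasting and Klf15 drives the breakdown of amino acids. Bmf is a cell death protein of the BH3-only class, Pik3ip1 an inhibitor of PI3K, Bcl6 a transcriptional repressor, Sesn1 and Sesn3 sestrins that restrain mTORC1, and Txnip an arrestin-like protein that binds thioredoxin and limits glucose uptake. Foxo1 is itself a member of the FOXO family.

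The promoters of the genes are shown first, because the genes share a regulator by reputation and part ways in the data. The RefSeq promoter table (GRCm38.p6, 250 bases before to 50 bases after each start) matched 9 of the 10 genes, all but Fbxo32, with 13 promoters. It was searched on both strands for the FOXO core GTAAACA, the E-box CACGTG that the glucose sensor complex and clock factors bind, the core TGACG and the full form TGACGTCA of the cAMP response element, the CCAAT box and the glucocorticoid element. The FOXO core stood in the promoters of Txnip, Trim63 and Sesn1, 3 of 13, against 3.65% of all 32851 promoters in the table. Klf15 and Bcl6 had an E-box (2 of 13, against 7.15% of all), and Klf15 had 3 of them, 1 of which lies across the start. The 5 sequences below were chosen to set a promoter with a FOXO core whose gene was higher after stimulation (Txnip) and one whose gene was hardly counted (Trim63) beside promoters without that core whose genes were lower (Klf15, Pik3ip1 and 1 of the 3 of Bmf). Cases of the other kind are not shown: Sesn1, with a FOXO core after the start of 1 promoter, was lower after stimulation, and Bcl6 and Foxo1, without the core, were higher. Each holds the 250 bases before the start, 5′ to 3′ on the strand of the gene, with the FOXO core, the E-box and the core of the cAMP response element in capitals on either strand.
Txnip, chr3:96557707-96557956, plus strand: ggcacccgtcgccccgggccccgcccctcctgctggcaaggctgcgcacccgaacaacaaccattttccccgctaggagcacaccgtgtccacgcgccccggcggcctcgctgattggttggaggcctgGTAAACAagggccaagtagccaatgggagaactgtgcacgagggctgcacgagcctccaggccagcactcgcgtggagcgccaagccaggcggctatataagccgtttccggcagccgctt
Trim63, chr4:134314870-134315119, plus strand: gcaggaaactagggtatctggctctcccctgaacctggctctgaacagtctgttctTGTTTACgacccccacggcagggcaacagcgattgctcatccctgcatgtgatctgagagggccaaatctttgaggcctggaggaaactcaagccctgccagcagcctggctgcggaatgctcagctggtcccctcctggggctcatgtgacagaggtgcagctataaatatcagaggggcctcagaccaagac
Klf15, chr6:90462326-90462575, plus strand: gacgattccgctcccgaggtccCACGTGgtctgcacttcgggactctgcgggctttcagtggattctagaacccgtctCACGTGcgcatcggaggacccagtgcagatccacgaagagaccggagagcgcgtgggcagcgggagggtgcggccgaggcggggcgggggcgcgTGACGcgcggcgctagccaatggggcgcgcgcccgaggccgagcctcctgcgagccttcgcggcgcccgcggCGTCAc
Pik3ip1, chr11:3330481-3330730, plus strand: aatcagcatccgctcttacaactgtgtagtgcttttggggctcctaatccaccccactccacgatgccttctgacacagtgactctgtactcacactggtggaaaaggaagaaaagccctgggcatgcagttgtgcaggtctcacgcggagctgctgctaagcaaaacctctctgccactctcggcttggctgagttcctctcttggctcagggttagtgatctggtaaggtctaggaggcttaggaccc
Bmf, chr2:118549687-118549936, minus strand: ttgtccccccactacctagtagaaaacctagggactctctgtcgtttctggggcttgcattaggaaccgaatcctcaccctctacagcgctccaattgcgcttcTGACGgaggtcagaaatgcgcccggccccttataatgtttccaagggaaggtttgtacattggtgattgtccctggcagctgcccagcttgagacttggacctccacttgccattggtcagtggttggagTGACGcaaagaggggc
In Txnip the FOXO core begins 121 bases before the start, and in Trim63 it lies on the opposite strand from 194 bases before the start. In Klf15 the E-boxes begin 228 and 172 bases before the start, and the last capitals, a reverse core of the cAMP response element 6 bases before the start, overlap the E-box across the start. The printed stretch of Pik3ip1 holds none of the 3 motifs in capitals. The core of the cAMP response element was in 4 of 13 member promoters (Bmf, Klf15, Sesn1 and Bcl6, where it overlaps the E-box) against 20.8% of all, the full element in 0 against 1.79%, the CCAAT box in 8 against 37.4% and the glucocorticoid element in 0 against 0.00913%. A match or its absence describes these letters in this window and not binding, and the promoters are in another genome build than the counted genes.

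The counted genes lie, in mm9, at chr2:118354493-118375414 (Bmf), chr11:3230734-3242974 (Pik3ip1), chr15:58007434-58046447 (Fbxo32), chr4:133871035-133885544 (Trim63), chr16:23965138-23988698 (Bcl6), chr10:41530380-41628242 (Sesn1), chr9:14080745-14130578 (Sesn3), chr6:90412620-90425203 (Klf15), chr3:96361880-96365780 (Txnip) and chr3:52072259-52154031 (Foxo1). None of them overlapped another gene of the table. Levels are counts scaled to library size (CPM) after scaling with TMM factors, given per replicate in the order 1 to 3 or as mean ± SD (n = 3). Differences are log2 fold changes with their standard error (SE), and a gene passed the test at an edgeR adjusted p of at most 0.05 over all 12156 genes. Total counts were between 10310447 and 21205032 in 17 libraries. Lipase Inh. + SR-3420 replicate 2 stands apart with 4263755 counts, of which Lars2 took 18.3%. Adipoq (at least 2415 CPM) and Fabp4 (at least 2259 CPM) marked every library as adipocyte, while Lep and Dio2 were counted at most 9 and 6 times in any library. Ucp1 ranged from 1.39 to 789 CPM. Ptprc, a marker of leukocytes, and Myh2 and Tnnt3, which mark skeletal muscle, were at 0 in all libraries. Counts of bulk RNA cannot tell fewer cells of a kind from less RNA per cell.

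**Figure D1:**
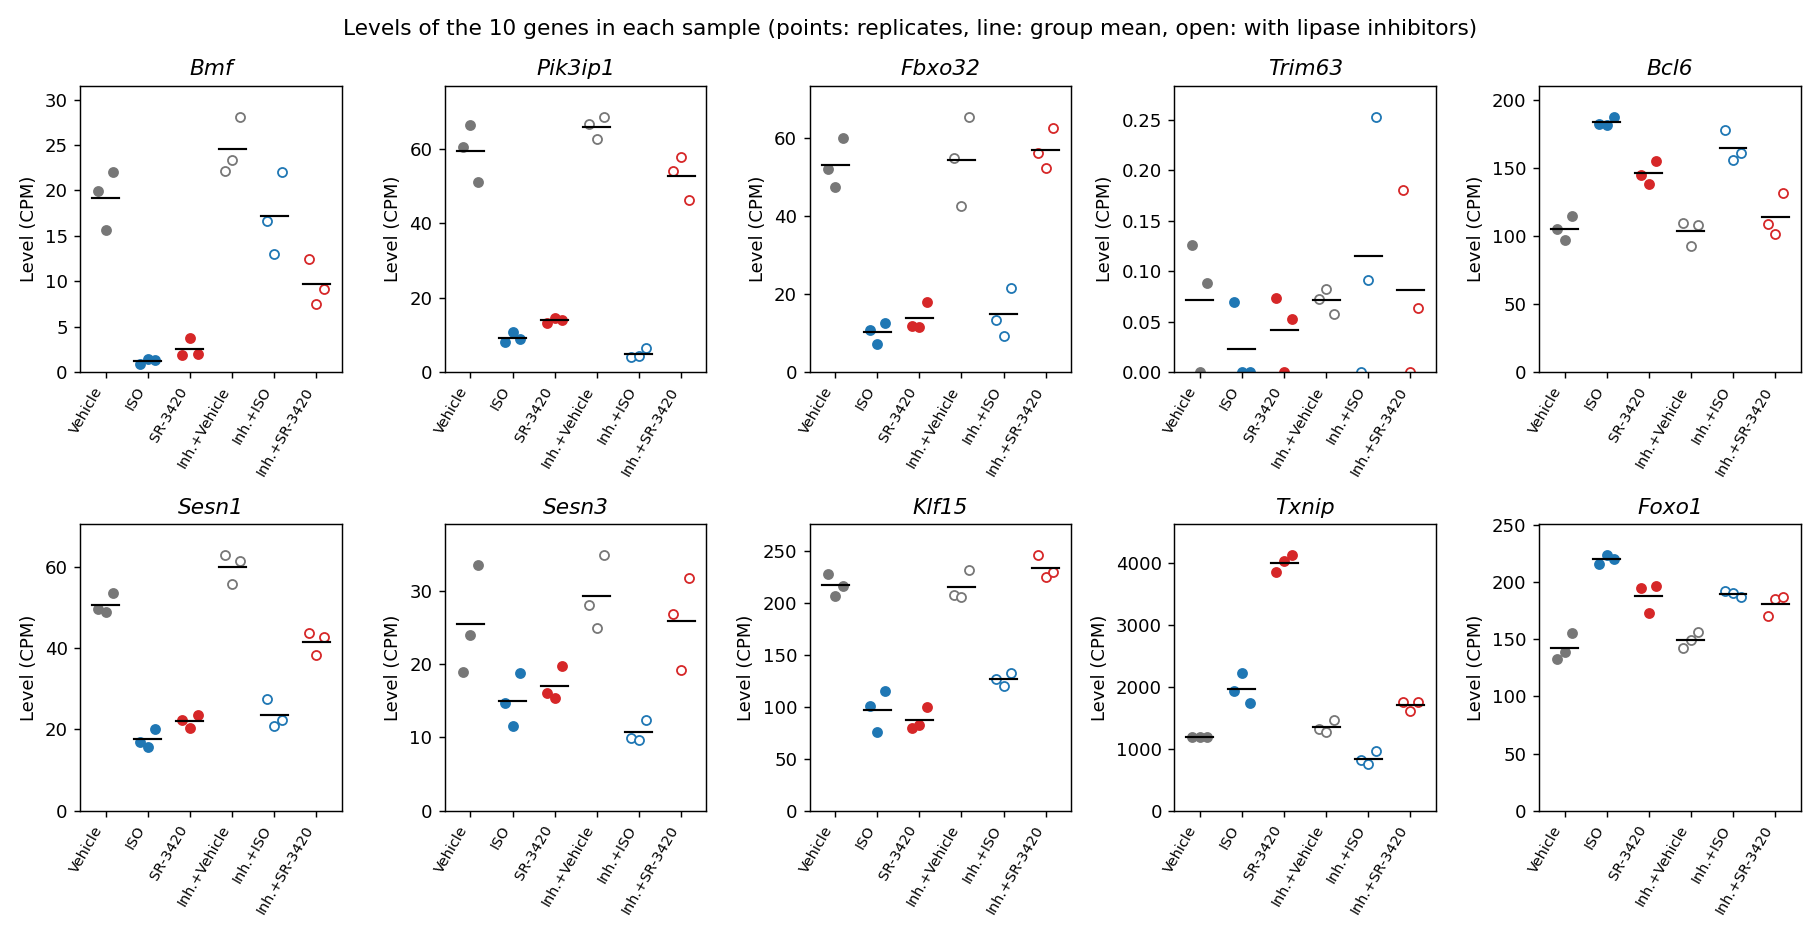
Level in CPM (y axis, linear from 0) of each of the 10 genes in the 18 samples, by group (x axis), with points for replicates, a line for the group mean and open points for groups with lipase inhibitors. Bmf is near 0 with ISO alone (0.902 to 1.43 CPM) and back at 13.0 to 22.0 CPM with Lipase Inh. + ISO, whereas Pik3ip1 is lowest in that group (3.96 to 6.44 CPM).

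Bmf, Pik3ip1 and Fbxo32 were all low after ISO and after SR-3420 but took different courses once lipolysis was blocked. Without inhibitors Bmf was at 19.9, 15.7 and 22.1 CPM in Vehicle, at 0.902, 1.43 and 1.37 CPM in ISO and at 1.84, 3.74 and 1.99 CPM in SR-3420. No stimulated sample reached the range of Vehicle. The ISO values rest on 13 to 17 counts per library. ISO was 15.8-fold lower than Vehicle (log2 fold change -3.98, SE 0.29) and SR-3420 7.78-fold lower (-2.96, SE 0.24).

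The groups with inhibitors share no sample with Vehicle, ISO and SR-3420 alone. There Bmf stood at 22.1, 23.4 and 28.1 CPM in Lipase Inh. + Vehicle. It was at 16.7, 13.0 and 22.0 CPM in Lipase Inh. + ISO and at 12.4, 7.46 and 9.16 CPM in Lipase Inh. + SR-3420. The fall with ISO was then 1.41-fold (-0.49, SE 0.19, edgeR adjusted p = 0.0297), and this call was lost when Lipase Inh. + ISO replicate 1 (adjusted p = 0.0813) or replicate 2 (adjusted p = 0.159) or Lipase Inh. + Vehicle replicate 3 (adjusted p = 0.139) was left out. The fall with SR-3420 was 2.45-fold (-1.29, SE 0.21, edgeR adjusted p = 0.000531). Bmf was therefore higher in Lipase Inh. + ISO than in Lipase Inh. + SR-3420, by 1.74-fold (0.80, SE 0.21, edgeR adjusted p = 0.00307). The groups did not overlap on the TMM scale. With total counts they did, at 12.2 CPM in Lipase Inh. + ISO replicate 2 and 13.4 CPM in Lipase Inh. + SR-3420 replicate 1. Without Lipase Inh. + SR-3420 replicate 2, where 28 counts carry the value, the log2 difference between these groups was 0.71 (adjusted p = 0.0117). Without inhibitors the order was the other way, with ISO at 1.23 ± 0.287 CPM below SR-3420 at 2.52 ± 1.06 CPM.

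Pik3ip1 was at 60.7, 66.4 and 51.1 CPM in Vehicle, at 8.05, 10.7 and 8.93 CPM in ISO and at 13.3, 14.5 and 13.997 CPM in SR-3420. Both stimulated groups were below Vehicle and did not overlap each other. ISO was 6.47-fold below Vehicle (-2.69, SE 0.14) and SR-3420 4.27-fold (-2.09, SE 0.13). With the inhibitors the values were 66.8, 62.6 and 68.8 CPM for Lipase Inh. + Vehicle, 3.96, 4.30 and 6.44 CPM for Lipase Inh. + ISO and 54.1, 57.8 and 46.3 CPM for Lipase Inh. + SR-3420. The fall with ISO came to 12.9-fold (-3.69, SE 0.15, edgeR adjusted p = 6.917e-15), and Lipase Inh. + ISO was the lowest of all 6 groups. For SR-3420 with inhibitors the change was -0.34 (95% interval -0.59 to -0.097) and did not pass over all genes (edgeR adjusted p = 0.121, or 0.0411 with scaling to total counts). The effect of ISO was larger with inhibitors (-0.999, SE 0.21), and that of SR-3420 smaller (1.75, SE 0.17). The ISO and SR-3420 groups with inhibitors differed 10.2-fold (-3.35, SE 0.15, edgeR adjusted p = 5.388e-14).

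Fbxo32 stood at 51.9, 47.5 and 59.99 CPM in Vehicle, at 10.8, 7.22 and 12.7 CPM in ISO and at 11.8, 11.6 and 17.9 CPM in SR-3420. ISO was 5.23-fold below Vehicle (-2.39, SE 0.24) and SR-3420 3.79-fold (-1.92, SE 0.22), and the stimulated groups overlapped each other. With the inhibitors Fbxo32 was at 54.9, 42.6 and 65.5 CPM for Lipase Inh. + Vehicle, at 13.4, 9.25 and 21.6 CPM for Lipase Inh. + ISO and at 56.1, 52.2 and 62.7 CPM for Lipase Inh. + SR-3420. The fall with ISO was kept at 3.56-fold (-1.83, SE 0.22, edgeR adjusted p = 3.375e-07). For SR-3420 the difference was 0.08 (95% interval -0.35 to 0.51, edgeR adjusted p = 0.9003). Its order over the groups thus had an upper tier (Vehicle, Lipase Inh. + Vehicle, Lipase Inh. + SR-3420) and a lower tier (ISO, SR-3420, Lipase Inh. + ISO), with overlapping neighbours inside each tier and none between them. Trim63, the other ubiquitin ligase of muscle wasting in the set, had 18 counts in all 18 libraries together and at most 5 in 1 library, which is too few to compare groups.

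For the inhibitors on their own, few of all genes passed, so the count of members says little about them. Of the 6 members tested here, 0 passed in edgeR and 0 in DESeq2, beside 0.428% of all genes lower and 0.485% higher. At an unadjusted p under 0.05 it was 1 of them, Sesn1, whose difference was 0.25 (SE 0.096, edgeR adjusted p = 0.304), at 50.7 CPM in Vehicle and 60.1 CPM in Lipase Inh. + Vehicle. Txnip differed by 0.18 (SE 0.092, edgeR adjusted p = 0.471), at 1187 CPM in Vehicle and 1346 CPM in Lipase Inh. + Vehicle. Bmf, Pik3ip1 and Fbxo32, given without a test, differed by 0.36 (SE 0.19), 0.15 (SE 0.11) and 0.04 (SE 0.20). Sesn1, Txnip and Bmf were higher with the inhibitors without overlap, and the other members overlapped. Overlap was not counted over all genes.

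**Figure D2:**
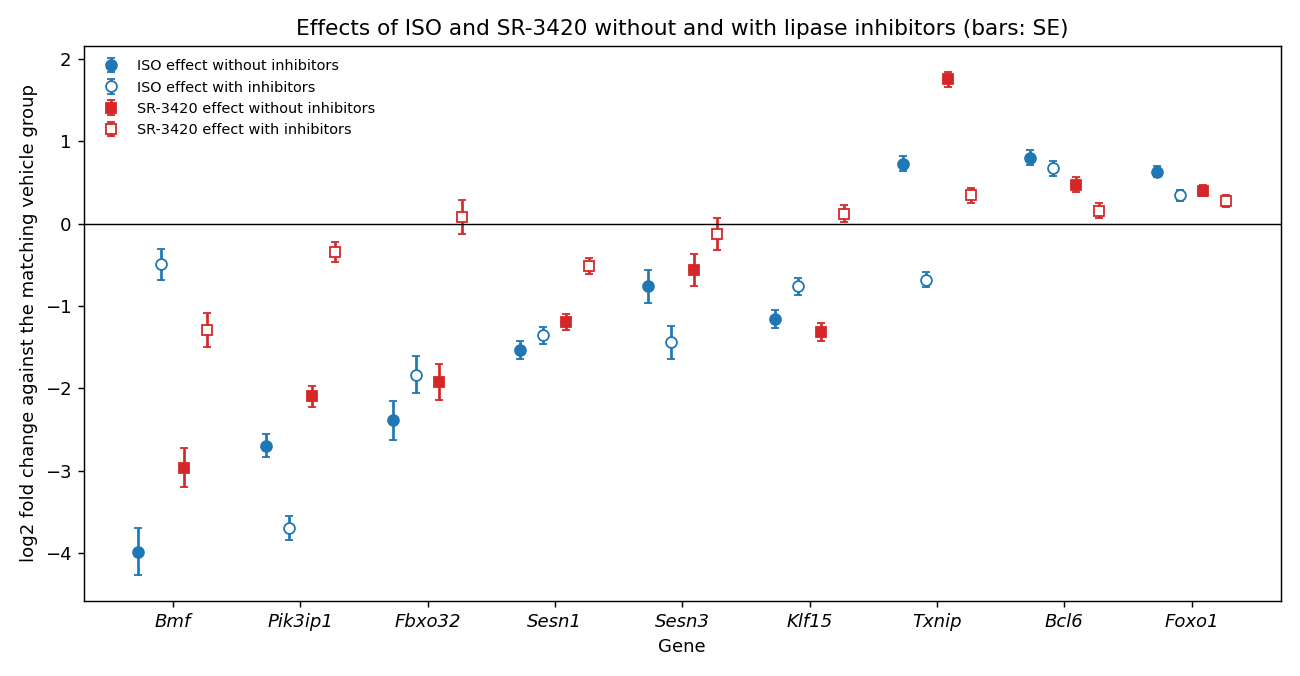
Log2 fold change against the matching Vehicle group (y axis) of the 9 genes that passed the filter (x axis), for ISO (circles) and SR-3420 (squares) without inhibitors (filled) and with inhibitors (open), with bars for the SE. With inhibitors, Txnip crosses from 0.73 to -0.68 for ISO, Bmf moves from -3.98 to -0.49, and the SR-3420 values of Fbxo32 and Klf15 move to 0.08 and 0.12.

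Counted over the set, 6 of the 9 genes were lower and 3 higher with ISO against Vehicle, and the same split held for SR-3420. All genes gave 25% lower and 26.8% higher for ISO and 25.4% lower and 26% higher for SR-3420, and since these contrasts gave the set its reason, nothing is read from the difference. With inhibitors, ISO lowered 7 of 9 genes and raised 2 (edgeR), beside 28.3% and 29.4% of all genes, and the median log2 fold change of the 9 was -0.76 beside -0.01 over all genes tested. SR-3420 with inhibitors lowered 2 of 9 and raised 2, beside 1.36% and 2.99%. The 7 that fell with Lipase Inh. + ISO were Bmf, Pik3ip1, Fbxo32, Sesn1, Sesn3, Klf15 and Txnip, and the 2 that rose were Bcl6 and Foxo1. The 7 thus hold Bmf, Pik3ip1 and Fbxo32, which were chosen for a fall with stimulus. ISO and SR-3420 were compared with the same Vehicle samples, and with inhibitors with the same Lipase Inh. + Vehicle samples. Total counts in place of TMM factors shifted the median of all genes by -0.31 for ISO, -0.16 for SR-3420 and -0.23 for ISO with inhibitors on the log2 scale. The directions given here are therefore relative to the bulk of genes. List counts given with total counts contain this shift, and the shares of all genes beside them are from the TMM scale.

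Sesn1 and Sesn3, the sestrins, had lower means in both stimulated groups without inhibitors and differed in how far they moved. Sesn1 was at 49.6, 48.8 and 53.7 CPM in Vehicle, at 16.9, 15.8 and 20.1 CPM in ISO and at 22.4, 20.4 and 23.5 CPM in SR-3420. ISO was 2.90-fold lower and SR-3420 2.29-fold lower than Vehicle, with no overlap. With inhibitors it was at 62.996, 55.8 and 61.4 CPM in Lipase Inh. + Vehicle, at 27.6, 20.9 and 22.3 CPM in Lipase Inh. + ISO and at 43.8, 38.4 and 42.7 CPM in Lipase Inh. + SR-3420. It fell 2.56-fold with ISO (-1.35, SE 0.10, edgeR adjusted p = 2.228e-10) and 1.43-fold with SR-3420 (-0.52, SE 0.10, edgeR adjusted p = 0.00300). The inhibitors reduced the effect of SR-3420 by 0.68 on the log2 scale (SE 0.14, edgeR adjusted p = 0.00119), whereas for ISO the change of the effect was 0.18 (95% interval -0.12 to 0.49, edgeR adjusted p = 0.374).

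Sesn3 varied more between replicates, with 18.9, 24.0 and 33.6 CPM in Vehicle, 14.7, 11.6 and 18.8 CPM in ISO and 16.0, 15.4 and 19.7 CPM in SR-3420. SR-3420 overlapped Vehicle, and ISO did not. With inhibitors it was at 28.1, 25.0 and 35.0 CPM in Lipase Inh. + Vehicle, at 9.99, 9.70 and 12.4 CPM in Lipase Inh. + ISO and at 26.9, 19.2 and 31.9 CPM in Lipase Inh. + SR-3420. ISO lowered it 2.72-fold there (-1.44, SE 0.20, edgeR adjusted p = 3.211e-06), and SR-3420 gave -0.12 (95% interval -0.53 to 0.28, edgeR adjusted p = 0.818). The fall with ISO was larger by 0.68 on the log2 scale with inhibitors than without (-0.68, SE 0.29), which missed the threshold (edgeR adjusted p = 0.0782). It passed without the filter (adjusted p = 0.0268), with a replicate block (-0.71, adjusted p = 0.00175) and without ISO replicate 2 (adjusted p = 0.0347) or Vehicle replicate 3 (adjusted p = 0.0120).

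Klf15, the activator of amino acid breakdown, had the largest upward change of its SR-3420 effect among the 6 members tested for it. It stood at 228, 207 and 217 CPM in Vehicle, at 101, 75.5 and 115 CPM in ISO and at 79.7, 82.4 and 99.6 CPM in SR-3420. The stimulated groups overlapped each other and lay below Vehicle, ISO by 2.24-fold and SR-3420 by 2.48-fold. With inhibitors Klf15 was at 207, 206 and 232 CPM in Lipase Inh. + Vehicle, at 127, 120 and 133 CPM in Lipase Inh. + ISO and at 246, 225 and 230 CPM in Lipase Inh. + SR-3420. The effect of SR-3420 changed by 1.43 (SE 0.15, edgeR adjusted p = 5.117e-07), from -1.31 to 0.12. ISO still lowered Klf15 with inhibitors (-0.76, SE 0.11, edgeR adjusted p = 2.658e-06). The change of the ISO effect was 0.40 (SE 0.15, edgeR adjusted p = 0.0481), and it missed the threshold in the fit of only the groups compared (adjusted p = 0.0561) and in 9 of the 18 fits that left out 1 library (Vehicle replicate 1 or 3, ISO replicate 1 or 2, Lipase Inh. + Vehicle replicate 1 or 2, Lipase Inh. + ISO replicate 1 or 3, or Lipase Inh. + SR-3420 replicate 2), with adjusted p up to 0.122.

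Enzymes of amino acid breakdown, for which KLF15 is a known activator, were counted as a list of 18 tested genes without Klf15. Most are of branched-chain amino acid catabolism. The list was drawn up with Prodh, Tat, Gpt and Gpt2 as well, which act on other amino acids, and the counts below were not split by this. SR-3420 lowered 13 of the 18 and raised 0, beside 25.4% and 26% of all genes (median log2 fold change -0.37, all genes -0.02). With inhibitors SR-3420 changed 0 of 18 in edgeR (median -0.01), and the effect differed between the conditions for 10 of 18, all toward higher values, beside 12.5% of all genes (median 0.34). Ivd, the isovaleryl-CoA dehydrogenase of leucine breakdown, fell by 0.70 on the log2 scale with SR-3420 (SE 0.063, edgeR adjusted p = 8.598e-09), and Bcat2, the aminotransferase of the first step, fell by 0.71 (SE 0.086, edgeR adjusted p = 5.914e-07). These were chosen for naming after their values were seen. ISO, which lowered Klf15 to a like level, lowered 5 and raised 3 of the 18, beside 25% and 26.8% of all genes (median -0.08), among the raised Dld at 0.48 (SE 0.060, edgeR adjusted p = 6.69e-07, or 0.0531 with total counts). Compared directly, 15 of 18 were higher in ISO than in SR-3420 and 0 lower, beside 15.8% and 13.9% of all genes. The difference of Klf15 itself was 0.15 (95% interval -0.076 to 0.38, edgeR adjusted p = 0.319), and without ISO replicate 2 it was 0.30 and passed (adjusted p = 0.0216). With total counts as the scale these last counts changed to 3 higher in ISO than in SR-3420, and ISO lowered 13 and raised 0, so the difference between ISO and SR-3420 for this list depended on the scaling. The 13 that fell with SR-3420 became 16, and the 10 of the interaction became 9.

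**Figure D3:**
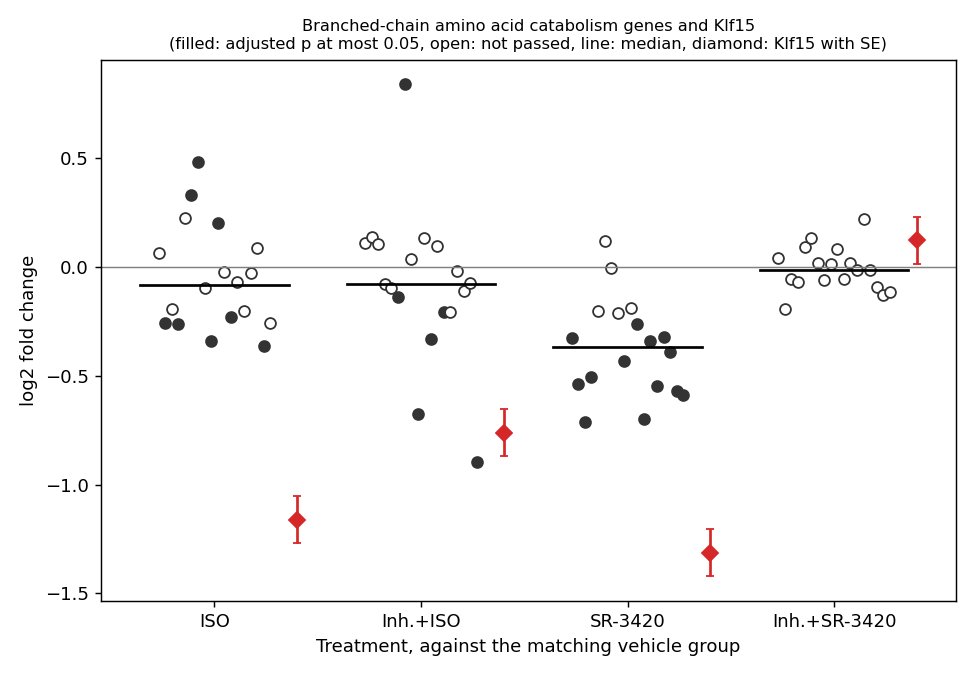
Log2 fold change (y axis) of the 18 tested genes of the list of amino acid breakdown, mostly of branched-chain amino acids, for each treatment (x axis). Each treatment is set against its matching Vehicle group. Points are filled where the adjusted p was at most 0.05, with a line for the median and a diamond for Klf15 with its SE. Klf15 is low for ISO (-1.16) and SR-3420 (-1.31), while the median of the list is -0.08 for ISO and -0.37 for SR-3420.

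Txnip, the arrestin-like brake on glucose uptake, went against the name of the set. Its level was 1191, 1184 and 1184 CPM in Vehicle, 1932, 2224 and 1729 CPM in ISO and 3842, 4022 and 4124 CPM in SR-3420. ISO was 1.65-fold and SR-3420 3.37-fold above Vehicle, and the 3 groups did not overlap. With inhibitors Txnip was at 1311, 1263 and 1464 CPM in Lipase Inh. + Vehicle, at 809.7, 745 and 960.1 CPM in Lipase Inh. + ISO and at 1744, 1611 and 1758 CPM in Lipase Inh. + SR-3420. ISO now lowered it 1.60-fold (-0.68, SE 0.092, edgeR adjusted p = 1.657e-06), and the change of direction was tested as an interaction of -1.41 (SE 0.13, edgeR adjusted p = 3.136e-08). The rise with SR-3420 shrank by the same amount on the log2 scale (-1.41, SE 0.13, edgeR adjusted p = 9.362e-08).

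What was left of the SR-3420 effect on Txnip with inhibitors was a rise of 0.34 (SE 0.092, edgeR adjusted p = 0.0339), which missed the threshold with total counts (adjusted p = 0.280), without replicate 1 or 2 of Lipase Inh. + Vehicle (adjusted p = 0.141 and 0.154) or replicate 1 or 3 of Lipase Inh. + SR-3420 (adjusted p = 0.0839 and 0.113). Txnip was lower with ISO than with SR-3420 by 1.03 without inhibitors (edgeR adjusted p = 3.335e-08) and by 1.02 with them (edgeR adjusted p = 4.74e-09). The authors kept 1 read per position and read length, and the highest Txnip library held 78663 reads over 2195 counted bases, or 35.8 per base. The part of this limit in the values of Txnip was not tested.

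Other arrestin and glucose-sensing genes passed in shares near those of all genes. Among 11 tested, ISO lowered 4 and raised 3 (5 and 1 with total counts), beside 25% and 26.8% of all genes, and with inhibitors it lowered 3 and raised 5 (4 and 4 with total counts), beside 28.3% and 29.4%. Arrdc3, an arrestin-like relative, rose with ISO both without (1.38, SE 0.10, edgeR adjusted p = 2.34e-10) and with inhibitors (1.33, SE 0.10, edgeR adjusted p = 2.59e-10). Arrdc2 fell in both (-1.25 and -1.06, edgeR adjusted p = 1.291e-09 and 6.78e-09). Arrdc1 fell as well (-0.82 and -1.37, edgeR adjusted p = 0.00144 and 5.46e-06).

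Bcl6 and Foxo1, both transcription factors, were higher with ISO than with Vehicle in either inhibitor condition. Bcl6 was at 105, 96.9 and 115 CPM in Vehicle, at 182, 182 and 188 CPM in ISO and at 145, 139 and 155 CPM in SR-3420, with no overlap. With inhibitors it was at 110, 92.9 and 108 CPM in Lipase Inh. + Vehicle, at 178, 156 and 161 CPM in Lipase Inh. + ISO and at 109, 102 and 132 CPM in Lipase Inh. + SR-3420. ISO raised it 1.59-fold there (0.67, SE 0.088, edgeR adjusted p = 1.139e-06), and SR-3420 gave 0.15 (95% interval -0.033 to 0.34, edgeR adjusted p = 0.444). The change of the SR-3420 effect was -0.32 (SE 0.13) and missed the threshold (edgeR adjusted p = 0.0657). It passed without the filter (adjusted p = 0.0454), with a replicate block (adjusted p = 0.0120) and without Lipase Inh. + Vehicle replicate 2 (adjusted p = 0.0277), Vehicle replicate 3 (adjusted p = 0.0347) or Lipase Inh. + SR-3420 replicate 3 (adjusted p = 0.00747). Of 11 tested partners and repressed targets of BCL6, ISO lowered 1 and raised 4 (3 and 1 with total counts), beside 25% and 26.8% of all genes, and with inhibitors it lowered 5 and raised 3, beside 28.3% and 29.4%. Socs3, a brake on cytokine signalling, rose with Lipase Inh. + ISO (1.43, SE 0.12, edgeR adjusted p = 1.50e-09). Ccnd2, a cyclin of the G1 phase, rose with ISO alone by 1.002 (SE 0.067, edgeR adjusted p = 6.18e-11).

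Foxo1 was at 133, 139 and 155 CPM in Vehicle, at 216, 224 and 220 CPM in ISO and at 195, 173 and 196 CPM in SR-3420. With inhibitors it was at 142, 149 and 156 CPM in Lipase Inh. + Vehicle, at 192, 190 and 187 CPM in Lipase Inh. + ISO and at 170, 185 and 187 CPM in Lipase Inh. + SR-3420. All stimulated samples lay above all unstimulated samples on the TMM scale. With total counts, Lipase Inh. + SR-3420 replicate 2 (163 CPM) lay below Vehicle replicate 3 (169 CPM) and Lipase Inh. + Vehicle replicate 3 (171 CPM). ISO raised it with inhibitors by 0.35 (SE 0.068, edgeR adjusted p = 0.000154), but by 0.12 with scaling to total counts (adjusted p = 0.214). SR-3420 raised it with inhibitors by 0.27 (SE 0.069, edgeR adjusted p = 0.0221), a call that missed the threshold with total counts (adjusted p = 0.314), with only the groups compared (adjusted p = 0.0688), without Lipase Inh. + Vehicle replicate 1 (adjusted p = 0.119) or replicate 2 (adjusted p = 0.0580), and without Lipase Inh. + SR-3420 replicate 2 (adjusted p = 0.0752) or replicate 3 (adjusted p = 0.0999). The inhibitors made the ISO effect smaller by 0.28 (-0.28, SE 0.096, edgeR adjusted p = 0.0281), which missed the threshold with total counts (adjusted p = 0.207), without the filter (adjusted p = 0.0610) and in 5 of the 18 fits that left out 1 library (Vehicle replicate 1 or 2, ISO replicate 2, Lipase Inh. + Vehicle replicate 3 or Lipase Inh. + ISO replicate 3), with p up to 0.0768.

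The other FOXO genes did not move together. Foxo3 was higher with ISO (0.81, SE 0.10, edgeR adjusted p = 6.432e-07) and lower with Lipase Inh. + ISO (-0.54, SE 0.10, edgeR adjusted p = 0.0001055), a change of -1.35 (SE 0.14, edgeR adjusted p = 2.228e-07). Foxo4 took the opposite course, from -0.63 (SE 0.073, edgeR adjusted p = 2.529e-07) to 0.18 (SE 0.072, edgeR adjusted p = 0.0347), a change of 0.81 (SE 0.10, edgeR adjusted p = 2.486e-06). With total counts the value of Foxo4 with Lipase Inh. + ISO turned to -0.044 (adjusted p = 0.698). Foxo6 was low throughout, at 4.00 ± 0.555 CPM in Vehicle and 4.76 ± 0.641 CPM in Lipase Inh. + Vehicle. It fell with ISO to 0.813 ± 0.380 CPM and with Lipase Inh. + ISO to 0.862 ± 0.0525 CPM (-2.22 and -2.45, edgeR adjusted p = 4.167e-06 and 4.296e-07). Foxo3 and Foxo4 were named after their values were seen.

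The interactions give, per gene, whether the inhibitors changed an effect. For ISO, 2 of the 6 members with a test were lower (Txnip and Foxo1) and 1 higher (Klf15), beside 16.6% and 14.9% of all genes. For SR-3420, 1 was lower (Txnip) and 2 higher (Klf15 and Sesn1), beside 14.8% and 12.5%. Bmf, Pik3ip1 and Fbxo32 are given as values, since their Vehicle, ISO and SR-3420 samples chose the set. For ISO the change was 3.49 (SE 0.36) for Bmf, -0.999 (SE 0.21) for Pik3ip1 and 0.55 (SE 0.33) for Fbxo32. Without Lipase Inh. + ISO replicate 3 the value of Fbxo32 was 0.13 and that of Pik3ip1 -1.30. For SR-3420 it was 1.67 (SE 0.33), 1.75 (SE 0.17) and 2.00 (SE 0.30), and all 3 were upward.

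ISO and SR-3420 were also compared directly. Without inhibitors, 2 of the 6 members with a test were lower in ISO than in SR-3420 (Sesn1 and Txnip) and 2 higher (Bcl6 and Foxo1), beside 13.9% and 15.8% of all genes. Bcl6 differed by 0.33 (SE 0.087, edgeR adjusted p = 0.00680, or 0.201 with total counts) and Foxo1 by 0.23 (SE 0.067, edgeR adjusted p = 0.0141, 0.488 with total counts and 0.0814 without SR-3420 replicate 2). Sesn1 differed by -0.34 (SE 0.11, edgeR adjusted p = 0.0232), which missed the threshold without ISO replicate 1 (adjusted p = 0.0825) or 2 (adjusted p = 0.109) and without SR-3420 replicate 1 (adjusted p = 0.0593) or 3 (adjusted p = 0.0994).

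With inhibitors the 2 stimuli stood further apart for most of these genes, and more of all genes differed as well. The shares of all genes were 13.9% lower and 15.8% higher in ISO without inhibitors, and 28.3% and 28.6% with them. The wider gap is thus not particular to the set. Of the 9 genes, 6 were lower in Lipase Inh. + ISO than in Lipase Inh. + SR-3420 and 2 higher (Bmf and Bcl6), beside 28.3% and 28.6% of all genes. The 6 were Pik3ip1 (-3.35), Fbxo32 (-1.91, edgeR adjusted p = 2.648e-07), Sesn3 (-1.32, edgeR adjusted p = 1.595e-05), Txnip (-1.02), Klf15 (-0.88, edgeR adjusted p = 4.079e-07) and Sesn1 (-0.84, edgeR adjusted p = 6.762e-07). Foxo1 differed by 0.07 (95% interval -0.070 to 0.21, edgeR adjusted p = 0.383). These 8 calls were kept in each of the 18 fits without 1 library.

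Of 32 other known FOXO targets tested, ISO lowered 10 and raised 15, beside 25% and 26.8% of all genes (median log2 fold change 0.16, all genes -0.02). SR-3420 lowered 15 and raised 12 (15 and 7 with total counts), beside 25.4% and 26%. With inhibitors ISO lowered 14 and raised 11 (median -0.07, 17 and 6 with total counts), beside 28.3% and 29.4%. The effect of ISO was changed downward for 18 and upward for 4, beside 16.6% and 14.9% (median -0.33). With total counts ISO lowered 15 and raised 11, so the direction of the larger count turned, and the interaction gave 12 downward and 4 upward. Pck1, the enzyme that commits carbon to gluconeogenesis and glyceride-glycerol, rose from 123 ± 15.5 CPM in Vehicle to 2228 ± 366 CPM in ISO (4.18, SE 0.19, edgeR adjusted p = 1.425e-13) and with inhibitors from 102 ± 12.03 to 346 ± 85.9 CPM (1.76, SE 0.18, edgeR adjusted p = 2.604e-08). Ppargc1a, the coactivator of mitochondrial biogenesis, rose by 3.83 and 1.85 (edgeR adjusted p = 9.942e-19 and 5.141e-14). Gadd45a, a growth arrest gene, fell by 0.57 without and fell by 2.46 with inhibitors (edgeR adjusted p = 0.000364 and 6.90e-13).

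Bbc3, which encodes the BH3-only protein PUMA and stands in both the FOXO target list and the BCL2 list, fell by 1.27 with ISO and fell by 2.46 with Lipase Inh. + ISO (edgeR adjusted p = 2.41e-05 and 3.62e-09). The ISO effect on Bbc3 was larger with inhibitors by 1.19 (-1.19, SE 0.31, edgeR adjusted p = 0.00476), the opposite sign to that of Bmf (3.49). Of 14 tested BCL2 family genes without Bmf, ISO lowered 5 and raised 2 (9 and 0 with total counts), beside 25% and 26.8% of all genes, and with inhibitors it lowered 7 and raised 1, beside 28.3% and 29.4% (median -0.22, all genes -0.01). Bcl2, the founding survival protein, and Bid, a BH3-only protein, fell with Lipase Inh. + ISO, with log2 fold changes of -1.18 and -1.096 (edgeR adjusted p = 3.52e-07 and 2.18e-07) and gave -0.29 and 0.12 with ISO alone, where total counts gave -0.60 for Bcl2 (adjusted p = 0.00113). Bok, a relative of BAX, fell in both (-1.14 and -0.76, edgeR adjusted p = 2.32e-08 and 4.81e-06).

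Upstream of FOXO, 24 genes of PI3K and AKT signalling were tested. ISO lowered 5 and raised 8, beside 25% and 26.8% of all genes, and with inhibitors it lowered 9 and raised 8, beside 28.3% and 29.4%, so these shares were near those of all genes. With total counts both were 15 lower and 4 higher, so the larger direction for ISO turned. On that scale the median of all genes was itself -0.33 for ISO and -0.24 for ISO with inhibitors. Irs2, an adaptor of the insulin receptor, rose from 216 ± 27.9 to 1143 ± 47.1 CPM with ISO (2.41, SE 0.091, edgeR adjusted p = 4.6e-15) and from 232 ± 22.9 to 296 ± 14.7 CPM with inhibitors (0.35, edgeR adjusted p = 0.00170, or 0.320 with total counts). Trib3, an inhibitor of AKT, fell with Lipase Inh. + ISO from 308 ± 36.04 to 60.5 ± 6.89 CPM (-2.36, edgeR adjusted p = 1.34e-14) and stood at 256 ± 14.3 CPM with ISO alone against 254 ± 20.0 CPM in Vehicle, where total counts gave -0.30 (adjusted p = 0.0199). Pik3r1, the regulatory subunit of PI3K, fell in both (-1.08 and -0.66, edgeR adjusted p = 3.67e-09 and 2.68e-06). Sgk2, a kinase related to AKT, rose by 2.00 and 1.60 (edgeR adjusted p = 0.000279 and 0.00308).

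Among 11 tested ubiquitin ligases of muscle atrophy other than Fbxo32 and Trim63, ISO lowered 4 and raised 5 (6 and 4 with total counts), beside 25% and 26.8% of all genes. Fbxo31, an F-box protein like Fbxo32, had 165 ± 7.37 CPM in Vehicle, 42.9 ± 6.92 CPM in ISO, 51.1 ± 5.09 CPM in SR-3420, 159 ± 26.6 CPM in Lipase Inh. + Vehicle, 37.0 ± 6.26 CPM in Lipase Inh. + ISO and 165 ± 9.71 CPM in Lipase Inh. + SR-3420. The high groups and the low groups of Fbxo31 were the same as those of Fbxo32. Mul1, a mitochondrial ligase, rose with ISO and more with Lipase Inh. + ISO (0.76 and 1.15, edgeR adjusted p = 7.73e-09 and 7.48e-12).

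Of 15 genes known to respond to glucocorticoids, which also raise Klf15 and Fbxo32 in muscle, ISO lowered 3 and raised 7 (4 and 5 with total counts), beside 25% and 26.8% of all genes, and SR-3420 lowered 2 and raised 9 (3 and 6), beside 25.4% and 26%. With inhibitors SR-3420 lowered 3 and raised 2, beside 1.36% and 2.99%, and its effect was changed downward for 9 and upward for 0 (6 and 0 with total counts), beside 14.8% and 12.5%. Dusp1, a phosphatase of MAP kinases, rose by 2.82 with ISO and by 3.59 with SR-3420 (edgeR adjusted p = 4.44e-12 and 2.38e-13). Ddit4, an inhibitor of mTORC1, rose with ISO by 2.31 without and by 2.98 with inhibitors (edgeR adjusted p = 1.44e-12 and 2.50e-14). Its level went from 102 ± 9.69 CPM in Vehicle to 507 ± 49.7 CPM in ISO. With inhibitors it went from 56.4 ± 9.31 to 443 ± 52.8 CPM, so the larger change there started from a lower level. Zbtb16 rose with ISO (0.94, edgeR adjusted p = 3.19e-06) and fell with Lipase Inh. + ISO (-1.66, edgeR adjusted p = 3.05e-09). Angptl4, an inhibitor of lipoprotein lipase, rose with SR-3420 (1.39, edgeR adjusted p = 5.54e-08) and fell with ISO (-0.41, edgeR adjusted p = 0.0187) and with Lipase Inh. + ISO (-1.60, edgeR adjusted p = 3.975e-09).

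Likeness in pattern was measured as the Pearson correlation of log2 CPM over the 18 samples with 9354 genes of sufficient level, as a description. The groups themselves carry these correlations. Nearest to Bmf were Wbp1l (0.97), Dexi (0.96), Fam134c (0.96), Dgcr8 (0.95) and Orai1 (0.95), whose own change with ISO was smaller, from -0.32 for Fam134c to -0.92 for Dexi. Nearest to Pik3ip1 were Slc6a6 (0.99), Sspn (0.99), Rxra (0.99), Cbx7 (0.98) and Trp53inp1 (0.98). Like Pik3ip1, these 5 had larger negative values with Lipase Inh. + ISO than with ISO, as in Slc6a6 with -1.58 for ISO and -2.21 for Lipase Inh. + ISO. They were chosen for their likeness over the same samples, so this is no further finding. Nearest to Fbxo32 were Klhl24 (0.98), Pcmtd2, Cdon, Pxdn and Zbtb14. With Spearman's rank correlation 1 of the 5 nearest to Bmf, 0 of those nearest to Pik3ip1 and 2 of those nearest to Fbxo32 were again among the nearest 5. Within the set, Fbxo32 went most closely with Klf15 (0.95) and Sesn1 (0.94), Bmf and Pik3ip1 correlated at 0.48, and Pik3ip1 and Txnip at -0.0048.

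Per length, which allows genes to be set beside each other, the Vehicle level ran from 541 CPM per kilobase for Txnip and 94.6 for Klf15 over 32.1 for Bcl6, 26.5 for Pik3ip1, 25.7 for Foxo1, 15.9 for Sesn1, 11.8 for Sesn3 and 7.66 for Fbxo32 to 4.15 for Bmf and 0.0379 for Trim63. Markers of other cell types were counted beside these results. The summed level of 6 fibroblast and preadipocyte markers was 89.6 to 119 CPM in Vehicle, 104 to 132 CPM in ISO and 136 to 139 CPM in SR-3420, and 94.5 to 103, 89.7 to 113 and 105 to 107 CPM in the same groups with inhibitors. The summed level of 6 adipocyte markers was 8392 to 9347 CPM in Vehicle, 9597 to 11242 CPM in ISO and 8655 to 9284 CPM in SR-3420, and 7140 to 8065, 8325 to 8786 and 8058 to 8639 CPM with inhibitors. The sum of 6 brown adipocyte markers was 214 to 283 CPM in Vehicle, 523 to 763 CPM in ISO and 307 to 340.3 CPM in SR-3420, and with inhibitors 219.5 to 291, 769 to 1022 and 227 to 284 CPM. Ucp1 alone ranged from 1.39 to 789 CPM over the libraries, and Ebf2, the next highest, reached at most 196 CPM. Of 5 tested brown adipocyte markers, ISO lowered 1 and raised 2, beside 25% and 26.8% of all genes. The 4 endothelial markers summed to at most 0.631 CPM and 5 measured macrophage markers to at most 6.30 CPM in any library, and 10 skeletal muscle markers to 10.1 to 14.3 CPM, mostly Des. The part of these shifts in the results was not tested.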

How the data were processed

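RNA-seq was measured in 18 samples of 6 groups. The sample titles gave the group and the replicate number. Per the methods of the study, TruSeq libraries were aligned to mm9 with STAR 2.4.2a, tags were collected with HOMER, which kept 1 read per position and length, and iRNA-seq gave the reads per gene. The authors deposited raw counts for 20295 genes, and 0 columns belonged to other samples. Use of strand is not given in the sources used here. No molecular identifiers are described.

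The fits used edgeR 4.0.16 under R 4.3.3 (filterByExpr with minimum count 10 and minimum total count 15, TMM factors, 1 quasi-likelihood model over 18 samples, glmQLFTest, Benjamini-Hochberg adjustment over 12156 genes). The SE is the log2 fold change divided by the square root of its F statistic, and intervals are 95% on its t distribution. The p-values set a difference between groups against the spread between replicates, which 1 model estimated over the 18 samples. On simulated counts with 200 genes changed 3-fold in the effect of ISO with inhibitors, 186 were recovered and 13 others called among 12046 genes.

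The 10 genes and the pathway lists were chosen with earlier results of these data known. Bmf, Pik3ip1 and Fbxo32 were tested only between groups with inhibitors. The other members were tested in all contrasts but ISO and SR-3420 against Vehicle without inhibitors. The choice by a fall with stimulus does not say that groups with inhibitors were left out of view. The p-values of Bmf, Pik3ip1 and Fbxo32 with inhibitors, and the counts that hold these genes, may therefore not be independent of the choice. From each list, up to 4 genes with the largest change past an adjusted p of 0.05 and an absolute log2 fold change of 1 for ISO with or without inhibitors could be named, and other named genes were picked with their values in view. Genes alike in pattern were the 5 with the highest correlation among those with a mean log2 CPM of at least 3 (prior count 2). Alternatives were DESeq2 1.42.0, RLE factors, total counts, no filter, only the groups compared, a replicate block and leaving out each library.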

Additional observations from a re-analysis of the deposited data

Results flagged for a closer look

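Of the 6 members with an interaction test, 4 passed it for ISO or SR-3420 in edgeR, and they are singled out for that reason. Of all genes, 16.6% were lower and 14.9% higher in the ISO interaction, and 14.8% and 12.5% in that of SR-3420. The share of all genes that passed either of them was not counted. Txnip had an interaction of -1.41 (adjusted p = 3.136e-08) for ISO and of -1.41 (adjusted p = 9.362e-08) for SR-3420. Klf15 had an interaction of 1.43 (adjusted p = 5.117e-07) for SR-3420 and of 0.40 (adjusted p = 0.0481) for ISO. The ISO call of Klf15 was lost in 10 of 25 alternatives. Sesn1 had an interaction of 0.68 (adjusted p = 0.00119) for SR-3420. Foxo1 had an interaction of -0.28 (adjusted p = 0.0281) for ISO, a call lost in 7 of 25 alternatives. Bmf, Pik3ip1 and Fbxo32 had no such test, and their changes reached 3.49 (Bmf, ISO) and 2.00 (Fbxo32, SR-3420). Trim63 was not fitted.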

How the results depend on the processing

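In the alternatives run, 1947 single-gene values kept their direction and their side of the threshold or stayed within their spread, 39 lost and 12 gained a call, 13 changed sign and 13 values without a test moved by more than their spread. The sign changes were all in differences near 0. For the inhibitors alone they were found when 1 library was left out, with Fbxo32 ranging from -0.123 to 0.179, Bcl6 from -0.0843 to 0.0407 and Klf15 from -0.0738 to 0.0211. For SR-3420 with inhibitors, Fbxo32 was -0.0218 with total counts and from -0.0644 to 0.237 without 1 library, and Sesn3 was from -0.298 to 0.0277. For ISO against SR-3420 with inhibitors, Foxo1 was -0.0417 with total counts. With total counts, ISO with inhibitors raised 1 gene in place of 2, SR-3420 with inhibitors 0 in place of 2, the ISO interaction was lower for 1 in place of 2, and 0 in place of 2 were higher in ISO than in SR-3420. With only the groups compared, SR-3420 with inhibitors raised 1 and the ISO interaction was higher for 0 in place of 1. Without a filter the SR-3420 interaction was lower for 2 in place of 1 (Txnip and Bcl6). Without 1 library, SR-3420 with inhibitors raised 0 to 2 genes, the ISO interaction was lower for 1 to 3 and higher for 0 to 1, the SR-3420 interaction was lower for 1 to 2, and ISO against SR-3420 was lower for 1 to 2 and higher for 1 to 3. The cause was not tested. Of 60 group levels, 15 moved by more than 1 SD with total counts.

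Replicate numbers are shared between groups. The mean correlation of the deviations of same-numbered samples was -0.012 for number 1 (from -0.114 to 0.166). It was 0.150 for number 2 (from 0.0745 to 0.249) and 0.190 for number 3 (from 0.114 to 0.280). All pairs of numbers 2 and 3 were thus positive, unlike those of number 1. Of 18 samples, 12 correlated best with their own number. The main fit held no replicate block. With a replicate block the SR-3420 interaction was lower for 2 in place of 1 gene. Bcl6 (-0.33, adjusted p = 0.0120) and Sesn3 (0.42, adjusted p = 0.0467) passed there, as did Sesn3 for the ISO interaction (-0.71, adjusted p = 0.00175). The block changed no other call. Depth limits Bmf under ISO (13 to 17 counts) and Trim63.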
